A study of Mus musculus with 4 samples.

Results

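The genes described here encode the secreted and membrane-bound proteases that cut the extracellular matrix, the Adamts and Mmp families, with their inhibitors, the Timp family, and the protease-like Adamtsl proteins. Members were the protein-coding genes whose symbol is Adamts, Adamtsl, Mmp or Timp followed by a number and at most 1 letter in the RefSeq annotation of mouse build GRCm38.p6. There were 51 of them among 21887 protein-coding genes, namely 19 Adamts, 5 Adamtsl, 23 Mmp and 4 Timp genes. Of the 23 Mmp genes, 10 lie side by side on chromosome 9 and were also read as 1 locus, which leaves 42 loci in all.

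Binding of the transcription factor STAT3 to these genes was taken from chromatin immunoprecipitation and sequencing of spinal cord cells of C57BL/6 mice. SCI mice had a laminectomy at thoracic level 9 with a moderate contusion of 60 kdyn, and sham mice had the laminectomy without the contusion. Both were sampled 7 days after surgery, and the tissue at the injury site was digested to single cells. The cells were not sorted, so a change in the mix of cell types and a change in binding per cell cannot be told apart. Each condition had 1 STAT3 library and 1 input library, each from the pooled tissue of 3 mice, so no difference between SCI and sham has a replicate check and none was tested. The input libraries were not analysed here, and RNA was not measured in these libraries.

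Matrix proteases are made as inactive precursors with a catalytic zinc ion, and they are controlled by activation, by uptake and by the Timp proteins, which block the active site. ADAMTS proteases cut proteoglycans such as aggrecan, brevican and versican, collagen precursors and other matrix proteins. MMPs cut collagens, gelatin, elastin and many proteins at the cell surface. In the injured spinal cord these enzymes are known for opening the blood-spinal cord barrier, for the passage of leukocytes and for the turnover of the chondroitin sulfate proteoglycans of the glial scar. STAT3 acts downstream of cytokine receptors, and some Mmp genes and Timp1 are known from other cell systems as genes that respond to it.

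The peak lists held 36249 SCI and 88765 sham peaks on chromosomes 1 to 19, X and Y. Each peak carries the authors' score of its strength, which starts at 5 in both lists. No source used here says whether both lists score on 1 scale, so a peak is also placed by its top percent, the percent of peaks of its own list that score as high or higher. Read counts are not part of the lists, and the depth is unknown.

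SCI peaks lay inside or within 5 kb of 30 of the 51 genes, 58.8%, and sham peaks at 39, 76.5%. Among all protein-coding genes the shares were 43.9% in SCI and 66.7% in sham. The members are long genes, with a median of 23.3 kb against 17.2 kb. If each had the share of the protein-coding genes in its length decile (1 of 10 equal groups of all protein-coding genes by length), 27.4 members would have an SCI peak and 39.0 a sham peak. The members' counts were thus close to those of genes of like length in both conditions. By locus, 26 of 42 had an SCI peak and 34 a sham peak. The sham list is longer, and with only its 36249 highest peaks the order of the conditions turned, with a sham peak at 24 members against 30 in SCI (44.9% of protein-coding genes had one, and the length deciles give 28.3). Within 50 kb, 47 members had an SCI peak and all 51 a sham peak, against 84.2 and 95.6% of all protein-coding genes, so this wider window says little about single genes.

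**Figure D1:**
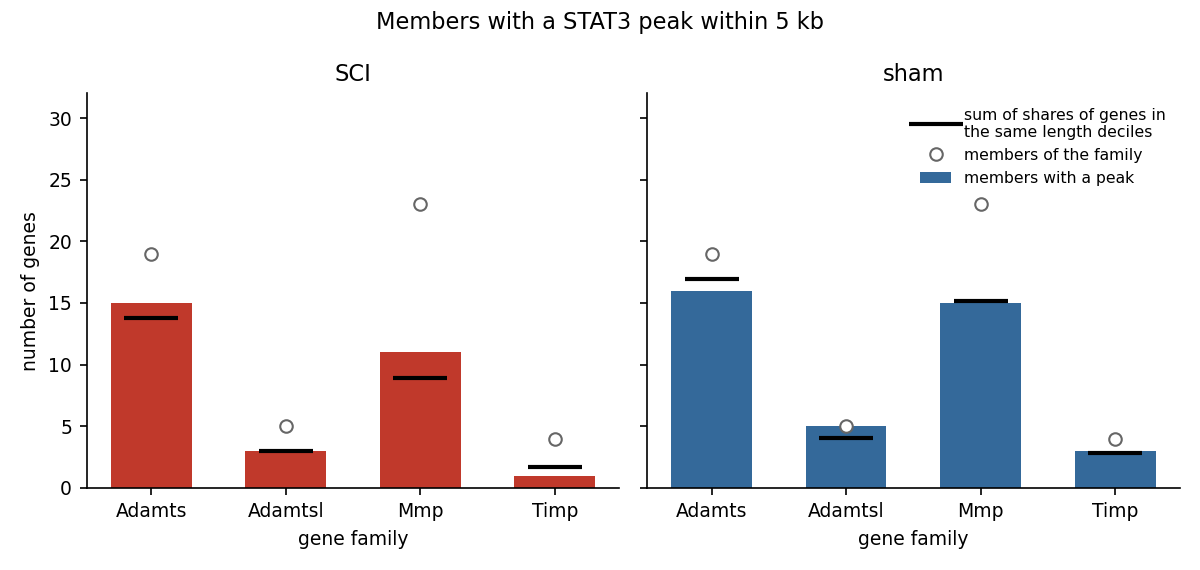
Number of genes of each family with a STAT3 peak inside or within 5 kb, SCI on the left and sham on the right. Bars are members with a peak, open circles the size of the family, and black lines the number that the protein-coding genes of the same length deciles give; the bars lie near the lines, at 15 against 13.8 for Adamts and 11 against 8.92 for Mmp in SCI.

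By family, SCI peaks lay at 15 of 19 Adamts genes (13.8 from the length deciles), 3 of 5 Adamtsl genes (3.03), 11 of 23 Mmp genes (8.92) and 1 of 4 Timp genes (1.71). Sham peaks lay at 16 Adamts (17.0), 5 Adamtsl (4.04), 15 Mmp (15.2) and 3 Timp genes (2.79). Peaks in both conditions were present at 27 members, against 37.3% of all protein-coding genes and 24.5 from the length deciles. Adamts14, Mmp2 and Mmp28 had a peak in SCI alone, where 6.51% of all genes did and the deciles give 2.91 members. A further 12 members had a peak in sham alone (29.3% of all genes, 14.4 from the deciles). These were Adamts1, Adamts5, Adamtsl2, Adamtsl4, Mmp9, Mmp11, Mmp12, Mmp14, Mmp15, Mmp24, Timp1 and Timp2. With as many sham as SCI peaks this order turned, with 11 members in SCI alone (15.1% of all genes, 7.41 from the deciles) and 5 in sham alone (16.2% of all genes, 8.26 from the deciles). At that setting 19 members had a peak in both (28.8% of all genes, 20.02 from the deciles). In the full lists, the 9 members with no peak in SCI or sham (26.8% of all genes, 9.13 from the deciles) were Adamts4, Adamts10, Mmp1a, Mmp1b, Mmp13, Mmp21, Mmp23, Mmp27 and Timp4.

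The edge of the window decided some of these states. Mmp10 was counted only for peaks 4454 bp outside it in SCI and 4455 bp in sham. The only sham peak of Adamts13 lay 4028 bp outside. The only SCI peaks of Mmp8 and Adamts7 lay 4029 and 4082 bp outside. Sham peaks 4727 bp outside Mmp20 and 4920 bp outside Timp1 decided no state, as both genes had a closer sham peak. Just beyond the edge, for members with no peak in either list, sham peaks lay 5086 bp outside Mmp21, 5205 bp outside Mmp1a and 5441 bp outside Mmp1b. SCI peaks lay 5849 bp outside Mmp23 and 5938 bp outside Adamts4. With a window of 10 kb, 3 members were left with no peak in either list.

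In total 76 SCI and 163 sham peaks lay at the members, 0.466 SCI peaks for each sham peak, where the whole lists have 0.408. Of these, 63 SCI and 138 sham peaks lay inside a gene. The median member had 1 SCI and 2 sham peaks, and the median protein-coding gene 0 and 1. Per Mb of gene with its flanks, members held 15.7 SCI and 33.7 sham peaks and all protein-coding genes 15.6 and 38.8. The 13 members of the longest decile, from 114 kb upwards, had peaks in both conditions without exception and held 51 of the SCI and 114 of the sham peaks. In that decile 92.7% of all genes had an SCI and 99.2% a sham peak. The 21 members of up to 17.0 kb had an SCI peak in 7 cases (33.3%, 6.43 from the length deciles) and a sham peak in 14 (66.7%, 12.2 from the deciles). Among all protein-coding genes of those deciles together the shares were 27.2 and 52.3%. Those genes are shorter, with a median of 7.4 kb against 10.1 kb for the 21 members.

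**Figure D2:**
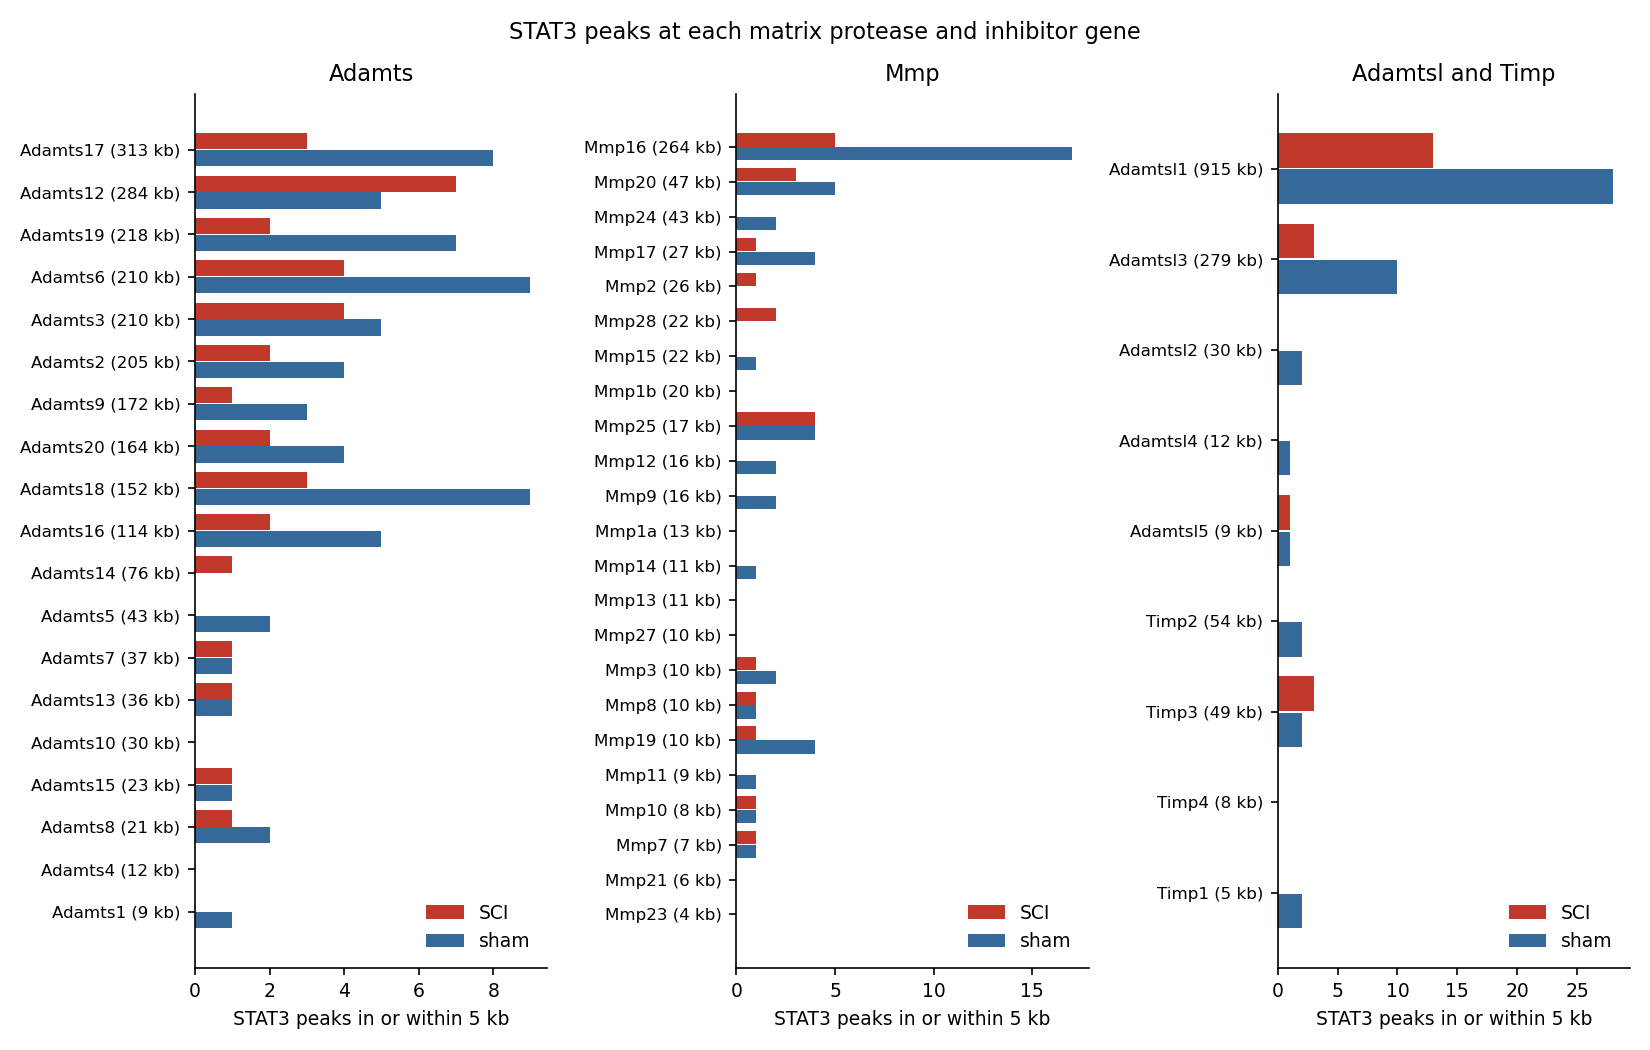
STAT3 peaks inside or within 5 kb of each of the 51 genes, with SCI bars above sham bars and genes of a family ordered by length, which is given beside the name. The horizontal scale differs between the panels, from 9 peaks at most among Adamts genes to 28 at Adamtsl1; the long genes hold most of the peaks, and Mmp25, at 17.0 kb, has 4 in each condition.

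Among the Adamts proteases that cut proteoglycans, Adamts1, Adamts4 and Adamts5 had no SCI peak within 5 kb. Adamts1 (chromosome 16, 85793827 to 85803113) had 1 sham peak, 915 bp upstream of its start site, at 85803934 to 85804123, which scored 9.07 (top 41.7%). Its nearest SCI peak lay 43.7 kb away. Adamts4, 12.1 kb long, had none within 5 kb in either list. Adamts5 (chromosome 16, 85858157 to 85901125) had 2 sham peaks inside, scoring 17.6 and 11.3, and its nearest SCI peak lay 25.2 kb away. An SCI peak was present at 52% of the 200 protein-coding genes closest in length to Adamts5, at 33% of those closest to Adamts4 and at 31.5% of those closest to Adamts1. A gene of their size without an SCI peak was thus common.

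The other proteoglycan-cutting members, Adamts8, Adamts9, Adamts15 and Adamts20, had peaks in both conditions. Adamts8 (chromosome 9, 30942562 to 30963838) held a sham peak at 30950210 to 30950399 that scored 38.5 (top 1.07%), while its SCI peak, 128 bp outside the gene, scored 5.93. Adamts9, a versican-cutting protease gene of 172 kb (chromosome 6, 92772699 to 92944450), had a position found in both lists. There the SCI peak at 92875133 to 92875296 scored 10.8 (top 21.4%) and the sham peak 28.1 (top 3.46%), inside both Adamts9 and the lncRNA gene Gm15737. Adamts9 had 1 SCI and 3 sham peaks in all, fewer than most genes of its length, of which 89.5 and 91.5% had as many or more. Adamts20 also had a shared position, at 94322063 to 94322226 on chromosome 15 in SCI, with scores of 15.95 in SCI (top 7.51%) and 7.85 in sham (top 52.8%). Adamts15 had 1 peak in each list, both of low score, at 6.66 in SCI and 7.66 in sham.

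The highest peak at any of the 51 genes lay at Adamts6, a protease tied to fibrillin microfibrils (chromosome 13, 104286518 to 104496695). The SCI peak at 104493019 to 104493141 scored 71.1 and ranked 9 of the whole SCI list, and the sham peak over it, at 104492990 to 104493179, scored 38.3 and ranked 981. The centres were 4 bp apart. Adamts6 had 4 SCI and 9 sham peaks, where the median gene of like length had 3 and 7, so its number of peaks was ordinary. The position above was picked out for its rank, and the share of like-length genes with a peak of such rank was not counted. A second sham peak of Adamts6, at 104455741 to 104455930, scored 26.5 in the top 4.12% and had no SCI peak over it. Adamts10, which is also tied to fibrillin and 30.1 kb long, had none in either list, and its nearest peaks lay 24.1 kb away in SCI and 42.0 kb away in sham.

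Adamts12, a protease that cuts cartilage oligomeric matrix protein, was the only Adamts gene with more SCI than sham peaks among those with peaks in both, 7 against 5. Of the 200 genes closest in length (around 284 kb), 12% had 7 or more SCI peaks and 93% had 5 or more sham peaks. Its highest SCI peak, at 11142320 to 11142483 on chromosome 15, scored 23.2 in the top 2.04%, and no position was shared with sham. Of the other SCI peaks at Adamts12, 1 scored 13.0 and 5 lay between 5 and 6.75. Adamts7, its closest relative, had 1 SCI peak 4082 bp outside the gene with a score of 9.06 and 1 sham peak at the lowest score, 5.

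Of the procollagen N-propeptidases, Adamts3 had 4 SCI and 5 sham peaks and Adamts2 had 2 and 4, while Adamts14 had 1 SCI peak of the lowest score, 5, which lay 803 bp outside the gene. The shared position of Adamts3, at 89785803 to 89785966 on chromosome 5, had a score of 7.71 in SCI (top 45.9%) and 17.7 in sham (top 11.7%). Adamts13, which cuts von Willebrand factor, had 1 SCI peak 1312 bp outside the gene, inside the neighbouring gene Cacfd1, with a score of 11.9, and 1 sham peak 4028 bp outside with a score of 13.4.

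Adamts16, Adamts17, Adamts18 and Adamts19 had between 2 and 3 SCI peaks and between 5 and 9 sham peaks. Adamts18 (chromosome 8, 113697123 to 113849343) held 9 sham peaks, the best at 113777410 to 113777599 with 27.7 (top 3.61%), against 3 SCI peaks with scores of at most 9.79. Shared positions were present at Adamts16, Adamts17 and Adamts18. The SCI score there was between 5.53 and 6.89 and the sham score between 9.26 and 18.8.

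The Adamtsl genes encode proteins with the ancillary domains of the ADAMTS family and no protease domain. Adamtsl1, the longest member at 915 kb (chromosome 4, 85513852 to 86428390), alone held 13 SCI and 28 sham peaks, and 28.5 and 33.5% of the 200 genes closest in length had as many or more. Its shared position ranked high in both lists, with the SCI peak at 86118449 to 86118612 scoring 19.2 (top 4.14%) and the sham peak at 86118474 to 86118663 scoring 44.0 (top 0.631%). A further pair of SCI peaks at Adamtsl1 reached the top 10%, with scores of 16.5 and 15.4. Adamtsl3 had 3 SCI and 10 sham peaks and 1 shared position, where the score was 7.62 in SCI and 17.1 in sham. Adamtsl5 had 1 SCI peak, 1393 bp outside the gene with a score of 7.77, and 1 sham peak inside with a score of 5.49. Adamtsl4 had 1 sham peak 3267 bp outside, scoring 9.24.

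Adamtsl2, a gene tied to fibrillin and to the control of TGF-beta, was the only member with a peak over a promoter. RefSeq promoter windows, from 250 bases before to 50 after a start site, matched 36 of the 51 members by gene ID, in 39 windows. A sham peak covered the window of Adamtsl2, while no SCI peak lay over any of the 39. Of 17492 protein-coding genes with such a window, 0.72% had an SCI and 1.75% a sham peak over it. The peak had the lowest score, 5, and its centre lay 114 bp upstream of the start site. A second sham peak lay inside Adamtsl2, at 27096777 to 27096966, and scored 8.39 (top 47.6%). The nearest SCI peak lay 68.4 kb from the gene. The window of Adamtsl2 is shown on the plus strand of GRCm38.p6 (chr2:27079129-27079428), and capitals mark the 190 bases under the peak at 27079171 to 27079360.
Adamtsl2: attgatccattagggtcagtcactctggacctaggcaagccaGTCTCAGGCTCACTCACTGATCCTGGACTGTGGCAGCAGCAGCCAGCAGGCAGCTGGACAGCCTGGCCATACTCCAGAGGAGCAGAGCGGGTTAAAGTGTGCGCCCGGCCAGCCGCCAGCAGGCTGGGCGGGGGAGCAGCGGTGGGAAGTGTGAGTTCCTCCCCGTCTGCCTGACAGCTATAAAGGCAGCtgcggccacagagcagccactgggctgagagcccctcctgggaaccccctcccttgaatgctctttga

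The same windows were searched for the STAT motif TTCNNNGAA, which reads the same on both strands, with no other motif searched. It was found in a window of 8.92% of the 17492 genes and of 1 of the 36 members, Mmp23, a short membrane-bound protease gene. The window of Adamtsl2 above has no match. The first of the 2 Mmp23 windows is shown on the minus strand (chr4:155653335-155653634), because Mmp23 is the only member with the motif, and capitals mark the match, which begins 4 bases before the start site.
Mmp23: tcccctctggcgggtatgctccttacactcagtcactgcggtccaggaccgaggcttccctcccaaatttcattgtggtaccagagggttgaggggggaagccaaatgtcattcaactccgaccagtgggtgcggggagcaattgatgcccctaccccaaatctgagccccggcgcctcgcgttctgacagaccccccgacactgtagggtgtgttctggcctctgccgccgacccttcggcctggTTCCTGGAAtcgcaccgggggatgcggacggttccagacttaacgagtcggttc

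Mmp23 had no peak within 5 kb. The nearest SCI peak was 5849 bp from the gene and the nearest sham peak 6889 bp. Within 1 kb of a start site there was no SCI peak and a sham peak at 2 of the 36 members, Adamts1 and Adamtsl2, while 3.19 and 7.29% of the 17492 genes had one. The nearest peak to a start site lay a median of 16.1 kb away in SCI and 8.65 kb in sham for the members, and 20.5 and 8.01 kb for all these genes.

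Among the membrane-type MMPs, Mmp25 stood apart from genes of its length in its number of SCI peaks. It encodes a membrane-anchored MMP known from leukocytes (chromosome 17, 23628315 to 23645269, minus strand). The gene has 4 SCI and 4 sham peaks, and 3 of the positions were found in both lists. Of 2189 protein-coding genes in its length decile, 4 including Mmp25 had 4 or more SCI peaks (0.183%) and 101 had 4 or more sham peaks (4.61%). Mmp25, at 17.0 kb, lies near the upper end of that decile, which is at 17.2 kb. Of the protein-coding genes closest to it in length, 0% had 4 or more SCI peaks and 8.5% had 4 or more sham peaks. Its sham count was thus less rare among these genes than in the decile. Over all lengths, 5.46 and 18.9% of protein-coding genes had that many. Among the members, 6 had 4 or more SCI peaks (5.85 from the length deciles) and 16 had 4 or more sham peaks (15.0 from the deciles). Mmp25 was picked out after its values were seen.

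The best shared position of Mmp25 lay 4.00 kb downstream of its start site in SCI, at 23641188 to 23641351, and scored 14.7 (top 9.69%). The sham peak there, at 23641190 to 23641284, scored 54.0 in the top 0.244%, the highest sham rank at any member. A second shared position, 2058 bp downstream of the start site in SCI, scored 6.56 in SCI and 14.1 in sham. The third was 2349 bp upstream in SCI and 2374 bp in sham, inside the neighbouring gene Bicdl2. It scored 12.8 in SCI (top 14.1%) and 5.37 in sham (top 86.9%). The order of the positions by score thus differed between the lists. The SCI peak at 23637076 to 23637239 (score 10.8) and the sham peak at 23644044 to 23644233 (score 13.6) had no partner.

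The other membrane-type genes, Mmp14 to Mmp17 and Mmp24, all had sham peaks, while SCI peaks lay at Mmp16 and Mmp17. Mmp16, 264 kb long (chromosome 4, 17853072 to 18117479), had 5 SCI and 17 sham peaks, and 37% of the genes closest in length had 5 or more SCI peaks and 2.5% had 17 or more sham peaks. Its best sham peaks scored 26.1 (top 4.28%) and 22.4 (top 6.64%), its best SCI peak 9.93 (top 26.5%), and no position was shared. Mmp17 had 1 SCI peak, 28 bp outside the gene with a score of 6.48, and 4 sham peaks inside with scores between 5.89 and 9.16. Mmp14, which activates the precursor of MMP2 at the cell surface (chromosome 14, 54431598 to 54442456), had 1 sham peak of the lowest score 2459 bp upstream of its start site, inside the neighbour Mrpl52. The nearest SCI peak lay 73.0 kb from Mmp14. Mmp15 had 1 sham peak with a score of 12.1 and Mmp24 had 2 with scores of 5 and 5.01. Beyond the 5 kb window, an SCI peak 9386 bp upstream of the Mmp24 start site scored 35.1 (top 0.381%).

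**Figure D3:**
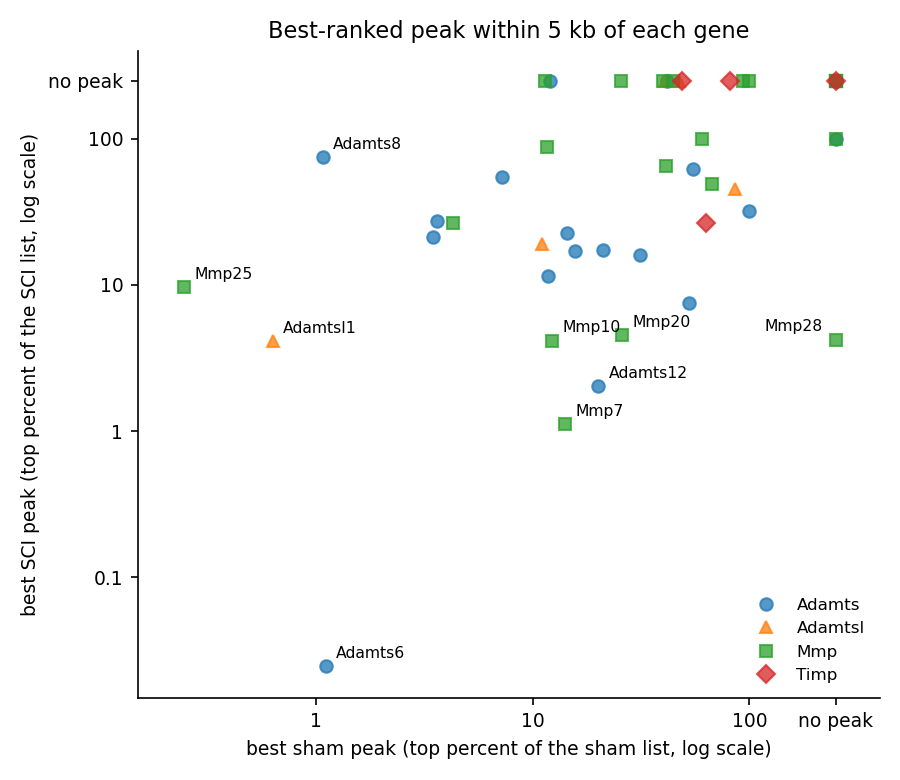
Top percent, in its own list, of the best-ranked SCI peak (vertical, log scale) and sham peak (horizontal, log scale) within 5 kb of each gene, with genes lacking a peak set at the edge marked no peak. Symbols stand for the family; Adamts6, Adamtsl1 and Mmp25 are in the top 10% of both lists, and Mmp28 has a high SCI peak and no sham peak.

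The gelatinases, which cut denatured collagen and the type IV collagen of basement membranes, had 1 SCI peak at Mmp2 and 2 sham peaks at Mmp9. Mmp2 (chromosome 8, 92827290 to 92853421) had 1 SCI peak inside the gene, at 92829138 to 92829301, with the lowest score of 5, and its nearest sham peak lay 8.86 kb away. Mmp9 (chromosome 2, 164940326 to 164955850) had 1 sham peak inside with a score of 8.80 and 1 sham peak 2100 bp outside with a score of 6.48, and its nearest SCI peak lay 6.33 kb away. Of the 200 genes closest in length, 46.5% had an SCI peak for Mmp2 and 38.5% for Mmp9. A sham peak was present at 78% of those for Mmp2, and 2 or more sham peaks at 32% of those for Mmp9.

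Mmp28, the epilysin gene (chromosome 11, 83440768 to 83463040, minus strand), had the strongest peaks among the members with SCI peaks alone. The SCI peak at 83465539 to 83465702, 2580 bp upstream of its start site, scored 19.1 in the top 4.23%, and the SCI peak inside, at 83459218 to 83459381, scored 16.7 in the top 6.49%. The nearest sham peak lay 9.52 kb outside the gene, so with a window of 10 kb Mmp28 had peaks in both lists. Mmp19, a basement membrane protease gene of 9.92 kb, had 1 SCI peak with a score of 5.32 and 4 sham peaks, the best at 17.8. In its length decile 49 genes (2.24%) had 4 or more sham peaks. Mmp11, the stromelysin-3 gene, had 1 sham peak with a score of 9.32, and Mmp21 had none within 5 kb in either list.

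The Mmp cluster on chromosome 9 spans 427 kb, from 7272514 at Mmp13 to 7699585 at Mmp7, and held 9 SCI and 18 sham peaks. Cut into windows of the same length, chromosome 9 had a median of 6 SCI peaks (range 1 to 22, 283 windows) and of 15 sham peaks (range 5 to 49, 284 windows). Fewer SCI peaks than the cluster were present in 73.9% of the windows and fewer sham peaks in 68.0%, so the cluster lay above the middle and well inside the range in both. Within 5 kb, 5 of the 10 genes had an SCI peak (3.52 from the length deciles) and 6 a sham peak (6.36).

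The SCI peaks of the cluster lay mostly at its far end. Of the 10 within the span or 5 kb beyond, 6 lay from just before Mmp20 onwards. Sham peaks lay in that stretch as well, among them 5 at Mmp20 and 1 at Mmp7. The highest SCI peak followed Mmp7, the matrilysin gene, 3622 bp outside it at 7703126 to 7703289, and scored 26.7 (top 1.11%). Mmp20, the enamel protease, held 3 SCI peaks inside, the best at 7634465 to 7634628 with a score of 18.7 (top 4.54%), and 5 sham peaks with scores of at most 12.0. Of genes closest in length to Mmp20, 9.5% had 3 or more SCI peaks and 16.5% had 5 or more sham peaks. The position beyond Mmp10, a stromelysin gene, was found in both lists, at 7514615 to 7514778 in SCI with a score of 19.2 (top 4.15%) and at 7514603 to 7514792 in sham with a score of 17.4 (top 12.2%), with centres 1 bp apart. A second shared position lay before Mmp20, by 5554 bp in SCI and 5540 bp in sham, with scores of 9.62 in SCI and 8.69 in sham.

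The strongest sham peaks of the cluster lay between Mmp genes, in the stretch from Mmp10 to Mmp20, where no SCI peak lay over them. The first, at 7540134 to 7540228, scored 60.3 and ranked 118 in the sham list (top 0.133%), 18.2 kb from Mmp8. The second, at 7589840 to 7590029 inside the lncRNA gene Gm31751, scored 41.9 (top 0.757%), 8.05 kb from Mmp27. The third, at 7548845 to 7549034, scored 24.5 (top 5.17%), 9.49 kb from Mmp8. None of these counts within 5 kb of a member.

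Mmp13 and Mmp1a, which encode interstitial collagenases, had no peak within 5 kb, nor did Mmp1b or Mmp27. Mmp8, the neutrophil collagenase, had 1 SCI peak 4029 bp upstream of its start site with the lowest score and 1 sham peak 1995 bp upstream with a score of 7.01. Mmp12, the macrophage elastase, had 2 sham peaks with scores of 6.18 and 18.0, and its nearest SCI peak lay 41.6 kb away. Mmp3, a stromelysin, had 1 SCI peak inside with a score of 7.49 and 2 sham peaks with scores of 6.72 and 5, 682 and 2961 bp outside.

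**Figure D4:**
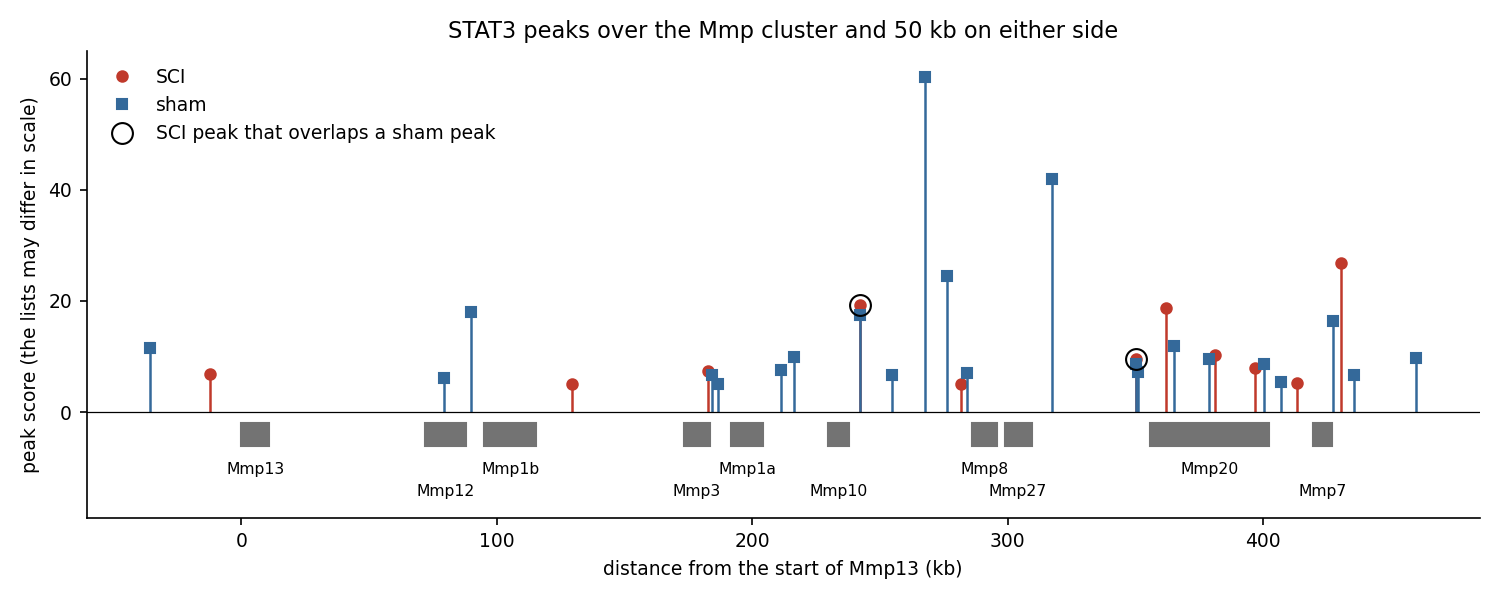
Score of each STAT3 peak (vertical) by its distance from the start of Mmp13 (horizontal, kb) over the Mmp cluster and 50 kb on either side, with SCI as circles, sham as squares and genes as grey boxes. Rings mark the SCI peaks at the 2 shared positions; the highest SCI peak, at 26.7, follows Mmp7, and the highest sham peaks, at 60.3 and 41.9, lie between Mmp genes. Scores of the lists need not share a scale.

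The Timp genes held 3 SCI peaks, all at Timp3, and 6 sham peaks. Per Mb of gene with flanks this was 19.3 SCI and 38.5 sham peaks, near the 15.6 and 38.8 of all protein-coding genes. Timp1, Timp3 and Timp4 lie within the spans of the synapsin genes Syn1, Syn3 and Syn2, so a peak at them is a peak of the synapsin locus as well. Timp1, the inhibitor induced in many injured tissues (chromosome X, 20870166 to 20874737), had 2 sham peaks 2260 and 4920 bp outside the gene with scores of 5.81 and 5, and its nearest SCI peak lay 81.1 kb away. Of the genes closest in length, 20.5% had an SCI peak and 10% had 2 or more sham peaks. Timp2, the inhibitor that also takes part in MMP2 activation, had 2 sham peaks inside with scores of 8.21 and 7.94, and its nearest SCI peak lay 15.1 kb away.

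Timp3, the matrix-bound inhibitor that also blocks ADAMTS proteases (chromosome 10, 86300412 to 86349505), had 3 SCI and 2 sham peaks, all inside. The SCI scores were 9.90, 7 and 5.32 and the sham scores 5.93 and 7. The first SCI peak, at 86318854 to 86319017, and the first sham peak, at 86318597 to 86318786, lay close to each other and did not overlap. Of the genes closest in length, 11.5% had 3 or more SCI peaks and 70.5% had 2 or more sham peaks. Timp4 had no peak within 5 kb, and its nearest lay 37.6 kb away in SCI and 14.9 kb in sham.

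Positions found in both lists numbered 14, at 11 members, of which 9 were Adamts or Adamtsl genes and the others Mmp10 and Mmp25. An SCI peak that overlaps a sham peak was present at 16.5% of protein-coding genes, and the length deciles of the members give 11.7. Of the 76 SCI peaks at members, 18.4% overlapped a sham peak (95% exact binomial interval 10.5 to 29.0%, counting error only), against 23.0% (22.4 to 23.6%) of the 18370 SCI peaks at protein-coding genes. Of the 163 sham peaks at members, 8.59% (4.78 to 14.0%) overlapped an SCI peak, against 9.30% (9.03 to 9.57%). At 10 of the 14 positions the sham peak had the better top percent, and at 4, the higher one at Adamts6 and those at Adamts20, Mmp10 and upstream of Mmp25, the SCI peak had. Over all 7849 positions in both lists the sham peak had the better top percent at 54.7% and the SCI peak at 45.2%. By rank, which is not scaled to the length of the list, the SCI peak was ahead at 6 of the 14 positions and the sham peak at 8, where over all positions the SCI peak was ahead at 70.9% and the sham peak at 29.1%. Centres were between 1 and 153 bp apart.

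**Figure D5:**
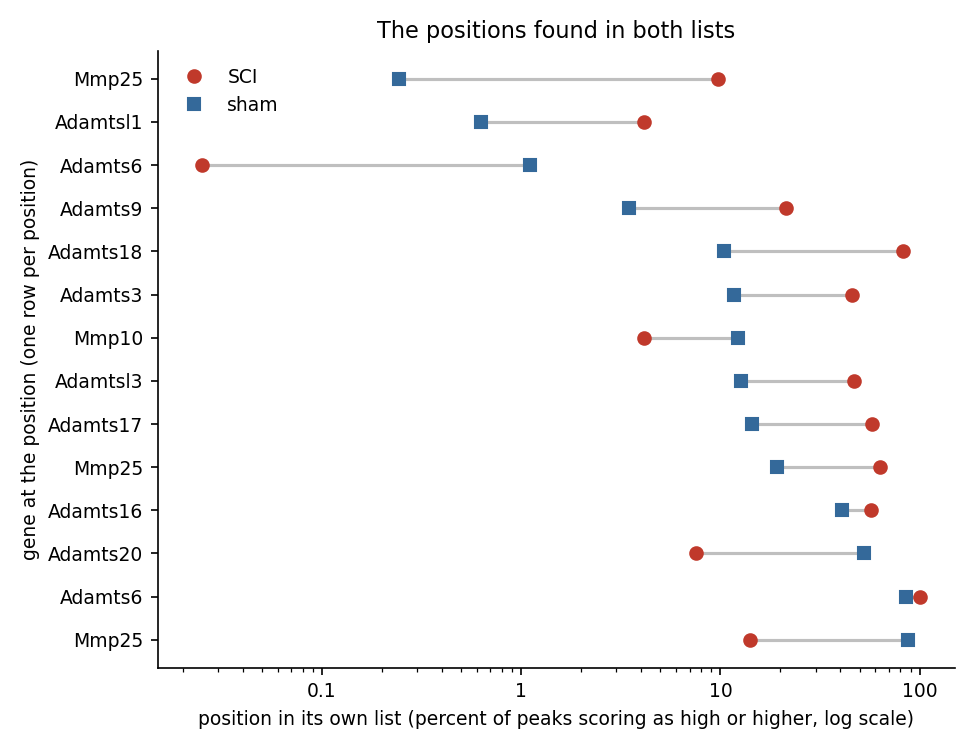
Top percent, in its own list, of the SCI peak (circles) and the sham peak (squares) at each of the 14 positions found in both lists, on a log scale and ordered by the sham value. The SCI peak lies further left at 4 positions and the sham peak at 10, where over all positions in both lists the SCI peak has the better top percent at 45.2% and the sham peak at 54.7%, with Adamts6 at 0.0248% in SCI.

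A peak of the top 10% of its list was present at 9 members in SCI (17.6%, against 8.11% of all protein-coding genes and 6.04 members from the length deciles) and at 8 in sham (15.7%, against 18.2% and 12.7 members). In SCI these were Adamts6, Adamts12, Adamts20, Adamtsl1, Mmp7, Mmp10, Mmp20, Mmp25 and Mmp28. In sham they were Adamts6, Adamts8, Adamts9, Adamts16, Adamts18, Adamtsl1, Mmp16 and Mmp25. Adamts6, Adamtsl1 and Mmp25 were in both groups, 3 members where 3.67% of all protein-coding genes were and the length deciles give 3.20. At the other end, 8 of the 76 SCI peaks (10.5%) and 16 of the 163 sham peaks (9.82%) had the lowest score of 5, which 7.68% of all SCI and 6.14% of all sham peaks had.

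Other genes of matrix proteolysis outside these families, a list of 36 that holds ADAM and tolloid proteases, the plasminogen system, cathepsins and their inhibitors, gave a like picture. An SCI peak lay at 22 of them (21.0 from the length deciles) and a sham peak at 28 (29.4). Both lists had a peak at 20 of the 36 (37.3% of all protein-coding genes), and SCI alone at 2, A2m and Adam33 (6.51% of all genes). Sham alone had one at 8 (29.3% of all genes) and neither at 6 (26.8% of all genes). Counts from the length deciles were not made for these states. The list holds long genes, Thsd4 at 555 kb among them, so a gap to the shares of all genes is not read as an excess. Reck, which restrains MMPs at the cell surface, had 1 SCI peak of the lowest score and 2 sham peaks, the best at 27.3. Thsd4, a close relative of the Adamtsl genes, had 16 SCI and 18 sham peaks over its 555 kb, with 3 of the SCI peaks shared. Adam8, a leukocyte protease gene, had 1 SCI peak, with a score of 15.7 and overlapped by sham, and 3 sham peaks.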

How the data were processed

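STAT3 ChIP peaks of 1 SCI and 1 sham library were read from the deposited lists, each matched to its sample by title. The submitters' processing notes name Bowtie2 and the build mm10. Which caller made the peaks, against which control and at which cutoff, is not stated in the labels or headers. The deposited score is the authors' value per peak, and the deposited −log10 q-value lay between 3.22 and 4.36 in SCI and between 3.27 and 4.05 in sham. Depth is unknown, and no input or artefact filter was applied here.

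On chromosomes 1 to 19, X and Y, peaks were assigned by their centre to RefSeq genes of GRCm38.p6 (49943 genes, mm10 coordinates), with windows of 5 and 50 kb. The Mmp cluster joins members on chromosome 9 less than 200 kb apart. Backgrounds were length deciles and the 200 protein-coding genes nearest in length. Shared peaks overlap by at least 1 bp. Intervals are 95% exact binomial (Clopper-Pearson). No test between conditions was possible. Members and lists were chosen with earlier results of these data known. Every member is accounted for; positions are given mainly for the 10 best peaks of each list at members, shared peaks, members with SCI peaks alone, and a set of main proteases and inhibitors. Start sites and promoter sequences came from RefSeq (GRCm38.p6). Counting was tested on simulated data. Alternatives were higher scores, equal numbers of peaks, other windows, overlap in place of centres and other rules for a shared peak. Tools were pandas 2.3.3 and numpy 2.4.6 under Python 3.11.15, with scipy 1.17.1 for intervals and matplotlib 3.10.9 for plots.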

Additional observations from a re-analysis of the deposited data

How the results depend on the processing

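Counts of members and loci with a peak stayed within 1.5 times of the values given, in both conditions and windows, with higher scores, other windows and overlap in place of centres. The exception was keeping only as many sham peaks as SCI has, by score, where 24 members, 21 loci and 66 peaks remained within 5 kb, against 39, 34 and 163. Keeping each list's upper scores, from its median on, left 40 SCI and 82 sham peaks at members, against 76 and 163, which follows from leaving out the lower-scoring peaks. The other 39 of 44 alternatives left the values within these limits. The shared percent of SCI peaks at members lay between 14.5 and 23.4% over its alternatives, 15.3% without Mmp25, which was an alternative chosen after seeing the data, as was leaving out Adamtsl1 (63 SCI and 135 sham peaks). The states of single genes moved more. With equal numbers of peaks, 11 members had a peak in SCI alone and 5 in sham alone, and with the upper scores 6 and 13. The share of all protein-coding genes at the upper scores was not counted, so those counts are not read as a trait of the members. Of the 3 members with SCI peaks alone, 1 stayed so with higher scores, 1 with a window of 10 kb and 0 with 50 kb. No paired analysis was possible because each condition has 1 library. Depth, the input signal and the spread between animals are unknown for these lists.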
